A study of Mus musculus with 3 samples.

Results

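Alb, Afp, Apoa1, Apob, Cdx2, Sox2 and Sox17 are genes of organs that arise beside the pancreas from the same gut endoderm, and their H3K36me3 signal in fetal pancreatic epithelium is described here. The 7 genes were taken by Ensembl identifier from the 24318 identified rows of each table. The list was chosen with earlier results of these data known. Each library came from wild-type C57BL/6 mouse embryos. Pancreatic epithelial cells carrying the surface protein EpCAM were isolated by flow cytometry at E11.5, E13.5 or E15.5, and H3K36me3 was profiled by CUT&Tag, in which an antibody guides a transposase to cut and tag the DNA beside the mark. There was 1 library per stage, 3 in all, with no replicate and no library without the antibody, so every difference below is a difference between 2 libraries and none was tested. The labels do not say how many embryos were pooled. For the middle stage the series description names E13.3 in place of the E13.5 of the sample labels, and the latter is used.

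H3K36me3 is laid down by the methyltransferase SETD2, which travels with elongating RNA polymerase II, so the mark covers the bodies of transcribed genes and is usually richer towards their far ends. Alb, Afp, Apoa1 and Apob encode secreted proteins of the liver, and the apolipoproteins among them are also made by the intestine. Cdx2, Sox2 and Sox17 encode transcription factors that mark other territories of the gut tube: the intestine, the stomach and anterior foregut, and the early endoderm and later the bile duct primordium. EpCAM is also carried by epithelial cells of other endoderm organs, and a sort on it does not remove them. The share of such cells was not measured, and the sorted cells could not be checked against pancreatic markers, because a symbol was paired with an identifier for these 7 genes alone.

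Each table holds 3 signal columns headed GB, PR and SE, whose abbreviations the files do not spell out. A value is a mean over a window in deposited units, and each window sum is a whole number of steps, a step being the smallest amount a library holds (0.162, 0.167 and 0.163 in stage order). Of the PR and SE sums, 92.3 to 96.4% were an even number of steps. Steps thus mostly came in pairs and are no count of independent observations. The GB window was read as the gene itself, since its length, found as the number of positions that makes every library's sum whole, fell on the gene's own length. It was 15733 bases for Alb, 18194 for Afp, 1840 for Apoa1 and 6350 for Cdx2, each equal to the RefSeq length. For Apob it was 39163 bases, the distance from the first base of its promoter entry to the end of the gene. Sox2 had 2466 bases, 1 short of RefSeq, and Sox17 had 6427, which is 72 short. Among all lengths within 5% of the RefSeq length, 1 passed for each gene, although the length of Apoa1 rests on 1 library and those of Afp and Sox17 on 2.

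The PR window has 6000 positions and the SE window 12000, and their place was read from sums over all rows. Where the gene was under 3000 bases, the PR sum was at least the GB sum in 98.3, 98.7 and 98.8% (stage order) of rows with GB above 0, against 64.4, 65.2 and 71.1% for genes of 3000 to 6000 bases. The SE sum was at least the GB sum in 99.1 to 99.2% of the latter rows, and in 65.8 to 72.0% for genes of 6000 to 12000 bases. On this basis PR was taken to hold 3000 bases of the gene from 1 end and SE 6000. The heading PR can be read as promoter, which would make that end the start, but no source states it.

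The genes lie on 5 chromosomes of GRCm38.p6, and RefSeq gives all of them as protein coding. Alb (ENSMUSG00000029368) spans chr5:90460870-90476602 and its relative Afp (ENSMUSG00000054932) follows it at chr5:90490714-90508907, both on the plus strand. Apoa1 (ENSMUSG00000032083) lies at chr9:46228630-46230469, with Apoc3, another apolipoprotein gene, 2581 bases beyond its end and Sik3 4436 bases before its start. Apob (ENSMUSG00000020609) spans chr12:7977629-8016839 and Sox17 (ENSMUSG00000025902) chr1:4490928-4497426. Cdx2 (ENSMUSG00000029646) spans chr5:147300900-147307249 on the minus strand, and the long non-coding RNA gene Gm35112 lies 2922 bases past its end. Sox2 (ENSMUSG00000074637) at chr3:34649995-34652461 lies wholly within the long non-coding RNA gene Sox2ot. A histone mark has no strand, so signal over Sox2 cannot be told apart from signal of Sox2ot. The SE window of Apoa1, as placed above, can hold signal of its neighbours. Its PR window reaches neither neighbour if set at the start of the gene, and Apoc3 alone if set at the end.

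RefSeq promoter entries were matched by symbol for 6 of the 7 genes. The 120 bases before the first base are shown for the 3 secreted-protein genes whose PR was listed at 0 at E15.5 and for Cdx2, whose GB was highest there. They are written 5′ to 3′ on the gene's strand, from chr5:90460750-90460869 (plus) for Alb, chr5:90490594-90490713 (plus) for Afp, chr12:7977557-7977676 (plus) for Apob and chr5:147307250-147307369 (minus) for Cdx2. Capitals mark GTTAAT, the half-site of the HNF1 factors of liver, gut and pancreas, TATAAA, the core of the TATA box, and CCAAT, searched on both strands, so that ATTGG is CCAAT on the other one.
Alb: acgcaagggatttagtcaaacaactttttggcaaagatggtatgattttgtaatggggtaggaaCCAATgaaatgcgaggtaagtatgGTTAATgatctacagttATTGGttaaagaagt
Afp: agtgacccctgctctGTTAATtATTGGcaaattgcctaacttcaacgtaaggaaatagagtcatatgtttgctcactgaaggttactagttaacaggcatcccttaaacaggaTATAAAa
Apob: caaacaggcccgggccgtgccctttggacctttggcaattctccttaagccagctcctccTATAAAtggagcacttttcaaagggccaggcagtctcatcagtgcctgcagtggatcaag
Cdx2: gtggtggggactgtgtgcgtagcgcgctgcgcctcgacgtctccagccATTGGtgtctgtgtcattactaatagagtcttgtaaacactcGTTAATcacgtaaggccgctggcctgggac
GTTAAT stood in Alb, Afp and Cdx2, starting 32, 105 and 30 bases before the first base, and in 3.00% of 32851 RefSeq promoters over the same 120 bases. TATAAA stood in Afp and Apob, 7 and 60 bases before it, and in 6.34% of promoters. CCAAT or its reverse stood in Alb, Afp, Cdx2 and Sox2, and in 21.3% of promoters. Apoa1 held none of these letters in that stretch, and no matches overlapped. These are matches of letters and describe no binding.

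Reaching the median of all rows in GB at all 3 stages was seen in 25.7% of rows and in 0 of the 7 genes. A list of 7 is too short to set these shares apart, and the difference was not tested. The median percentile of the 7 genes in GB, among all identified rows, was 42.5, 35.5 and 60.7 in stage order, where a percentile of 100 would be the highest row. The last value became 43.8 with Alb, Apoa1 or Cdx2 left out and 44.6 without Apob. In PR it was 46.6, 36.8 and 11.0, and in SE 51.6, 27.4 and 36.6, the last becoming 21.0 without Apoa1, Apob or Sox2 and 22.0 without Cdx2. Listed at 0 at E15.5 were 4 of the 7 genes in PR, against 22.1% of rows, and 3 in SE, against 11.0% of rows. In GB it was 2 of the 7, against 20.3% of rows. At E11.5 and E13.5 the shares of all rows were lower, at 7.59 and 11.9% in PR and 1.97 and 2.87% in SE. Of the 7 genes, 0 and 1 were at 0 in PR at these stages, and 0 and 0 in SE. The E15.5 library also differed as a whole. Its mean over all rows was 0.00924 in GB and 0.0118 in PR, against 0.00588 and 0.00506 at E13.5. The median of all rows was lower in GB, at 0.00371 against 0.00421, and higher in PR, at 0.00559 against 0.00368.

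**Figure D1:**
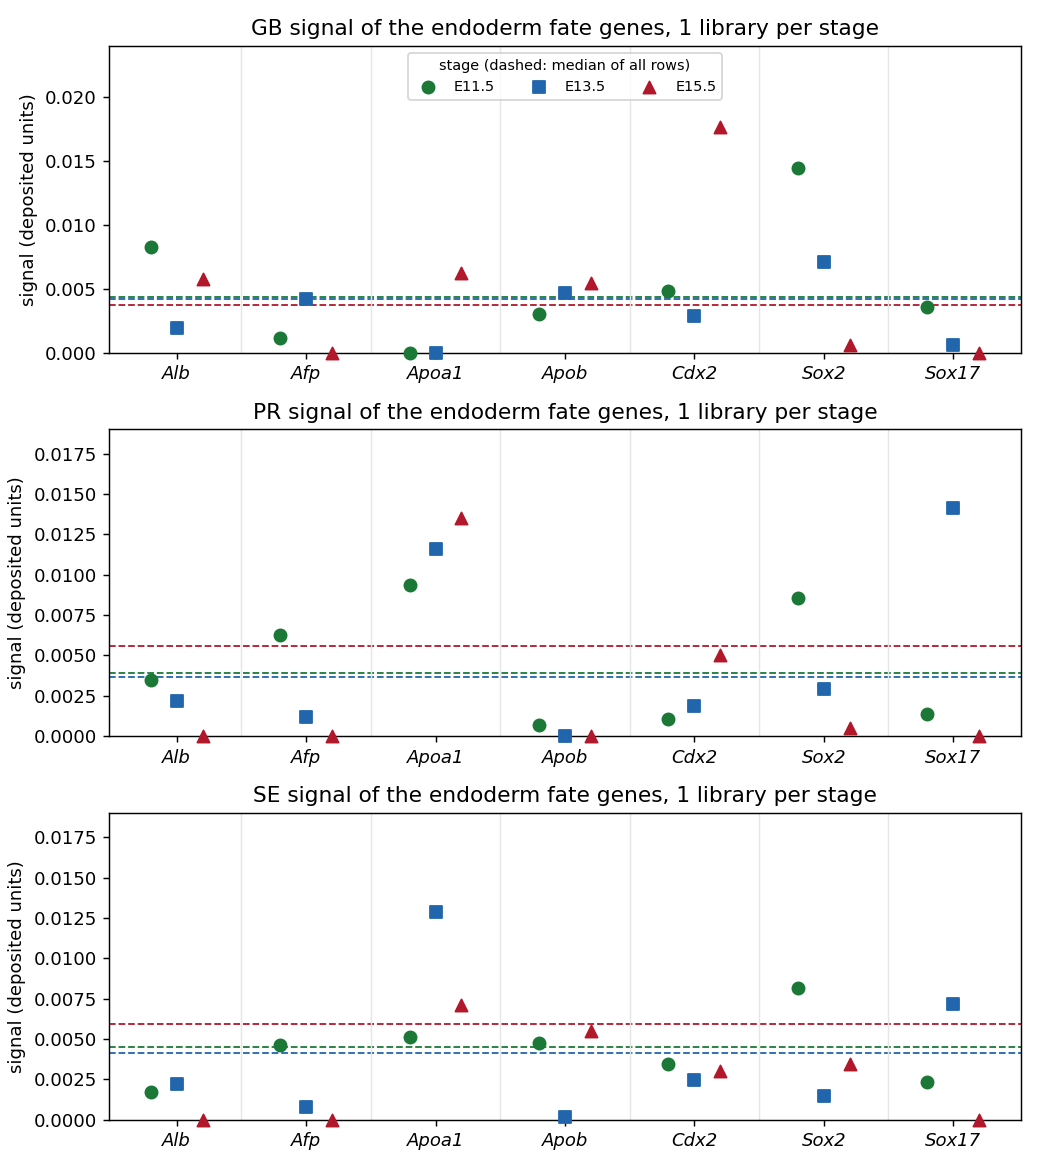
Signal of each gene (x axis) in GB, PR and SE (y axis, deposited units), 1 point per library, with dashed lines at the median of all identified rows in the same library. In GB the points of 6 of the 7 genes lie on both sides of these lines, and the highest GB values are Cdx2 at E15.5 (0.0177) and Sox2 at E11.5 (0.0144).

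**Figure D2:**
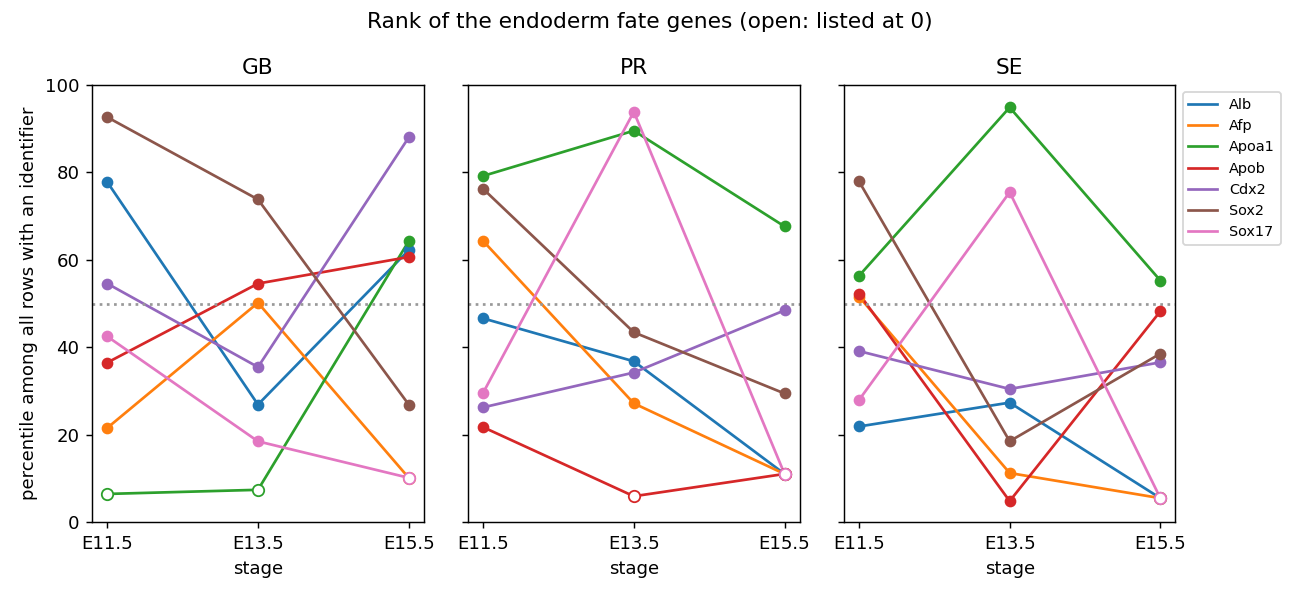
Percentile of each gene among all identified rows (y axis) by stage (x axis) for GB, PR and SE, with open circles for values listed at 0 and a dotted line at the middle row. In GB 6 of the 7 lines cross it, although Afp and Apoa1 stayed below the middle among rows of like GB length, and 4 genes end at the 0 level in PR at E15.5.

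Alb encodes serum albumin, the most abundant protein that liver cells secrete. Its GB signal was 0.00823, 0.00196 and 0.00576 in stage order, at percentiles 77.8, 26.9 and 62.2. The middle library was the low one, 4.20-fold under E11.5, with E15.5 2.94-fold above it. The E13.5 value of Alb rests on little, 184 steps. Among rows of like GB length (within 1.5-fold) the percentiles were 69.2, 12.4 and 46.9. PR went from 0.00345 to 0.00218 to a listed 0, and SE was 0.00173, 0.00220 and 0. At E15.5 the window of 12000 positions around 1 end of Alb was thus at 0 while the gene held 556 steps, all of it outside that window. At E11.5 at least 672 of 800 steps (84.0%) lay outside SE.

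Afp encodes alpha-fetoprotein, the albumin relative of fetal liver and yolk sac. Its GB signal was 0.00112, 0.00423 and 0 in stage order, at percentiles 21.6, 50.2 and 10.2. Among rows of like GB length they were 6.44, 36.5 and 2.10, below the middle row throughout. PR was 0.00626, 0.00117 and 0, and SE was 0.00464, 0.000782 and 0. Afp was therefore listed at 0 in all 3 columns at E15.5, as was Sox17. That held for 5.95% of all rows at E15.5, for 0.814% at E11.5 and for 1.21% at E13.5. Having GB above 0 at both earlier stages and 0 everywhere at E15.5 was seen in 2.27% of rows. For the neighbours Alb and Afp the GB order differed, E13.5 being the lowest library of Alb and the highest of Afp.

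Apob encodes the structural protein of very-low-density and low-density lipoproteins and is the longest of these genes. Its GB signal was 0.00299, 0.00466 and 0.00545, at percentiles 36.5, 54.6 and 60.7, and it was the only one of the 7 to be higher at each later stage, an order seen in 16.2% of rows. The largest of its GB differences was 1.82-fold. PR was 0.000702 at E11.5 and listed at 0 in both later libraries. SE was 0.00472, 0.000139 and 0.00551, so the E13.5 library stood far below the others there. Of the 1090 steps over the gene at E13.5, at least 1080 (99.1%) lay outside SE, against at least 51.6% at E11.5 and 69.0% at E15.5.

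Apoa1 encodes the main protein of high-density lipoprotein and is the shortest of these genes. Its GB was listed at 0 at E11.5 and E13.5 and was 0.00620 at E15.5, a value of 70 steps in 1 library at percentile 64.3, or 49.0 among rows of like GB length. PR was 0.00939, 0.0116 and 0.0135, and Apoa1 was the only one of the 7 with PR at or above the median of all rows in every library, at percentiles 79.2, 89.5 and 67.6. It was so in 18.0% of all rows. SE was 0.00513, 0.0128 and 0.00709, also at or above the median throughout, as in 20.4% of rows. As the gene is shorter than the part of it that PR takes in, the 348 and 416 steps of PR at the earlier stages lay beside the gene and not in it, and at E15.5 the gene held 70 of 498. PR of Apoa1 was 1.16-fold higher at E15.5 than at E13.5 as deposited, but the log2 ratio of 0.20 became -0.35 after dividing each library by its median and -0.98 after quantile normalization. Against E11.5, 0.48 became -0.47 under the latter.

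Cdx2 specifies intestinal against gastric epithelium. Its GB signal was 0.00479, 0.00290 and 0.0177, at percentiles 54.6, 35.5 and 88.0, so E15.5 stood apart, 3.68-fold above E11.5 and 6.09-fold above E13.5. The earlier values of Cdx2 rest on little, 188 and 110 steps. Among rows of like GB length its E15.5 percentile was 74.3. PR was 0.00108, 0.00190 and 0.00505, the last at percentile 48.5, and SE differed little, at 0.00343, 0.00248 and 0.00301. The higher GB was therefore mostly not in SE. At E15.5 at least 466 of 688 steps (67.7%) lay outside that window, which leaves 350 bases of the gene uncovered if it reaches 6000 bases in. On that reading most of the E15.5 value comes from those 350 bases. The folds and percentiles in GB then do not describe a difference spread over the gene. At E11.5 and E13.5 the SE sums of 254 and 178 steps were above the GB sums of 188 and 110.

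Sox2 marks the stomach, oesophagus and lung part of the foregut. Its GB signal was 0.0144, 0.00706 and 0.000596, at percentiles 92.6, 73.8 and 26.9, a lower value at each later stage and 24.2-fold lower at E15.5 than at E11.5. GB was lower at both steps in 17.3% of all rows. Among rows of like GB length the percentiles were 78.0, 56.3 and 30.9. PR followed the same order, with 0.00858, 0.00290 and 0.000488, whereas SE was lowest in the middle, with 0.00815, 0.00145 and 0.00342. These values rest on little: the gene held 220, 104 and 9 steps. At E13.5 the GB, PR and SE sums were all 104 steps, so everything in 12000 positions lay within the 2466 bases of the gene, while at E15.5 the gene held 9 of 252.

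Sox17 acts in early endoderm and in the bile duct primordium that lies next to the ventral pancreas, and is also a gene of endothelium. Its GB signal was 0.00358, 0.000573 and 0, at percentiles 42.5, 18.5 and 10.2, below the middle row in all 3 libraries. These values too rest on little, 142, 22 and 0 steps. PR was 0.00140, 0.0141 and 0, and the E13.5 library stood apart at percentile 93.9, the highest PR percentile of the 7 genes. SE was 0.00232, 0.00717 and 0. At E13.5 PR held 506 of the 514 steps of SE while the whole gene held 22, so most of that signal lay outside the gene.

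**Figure D3:**
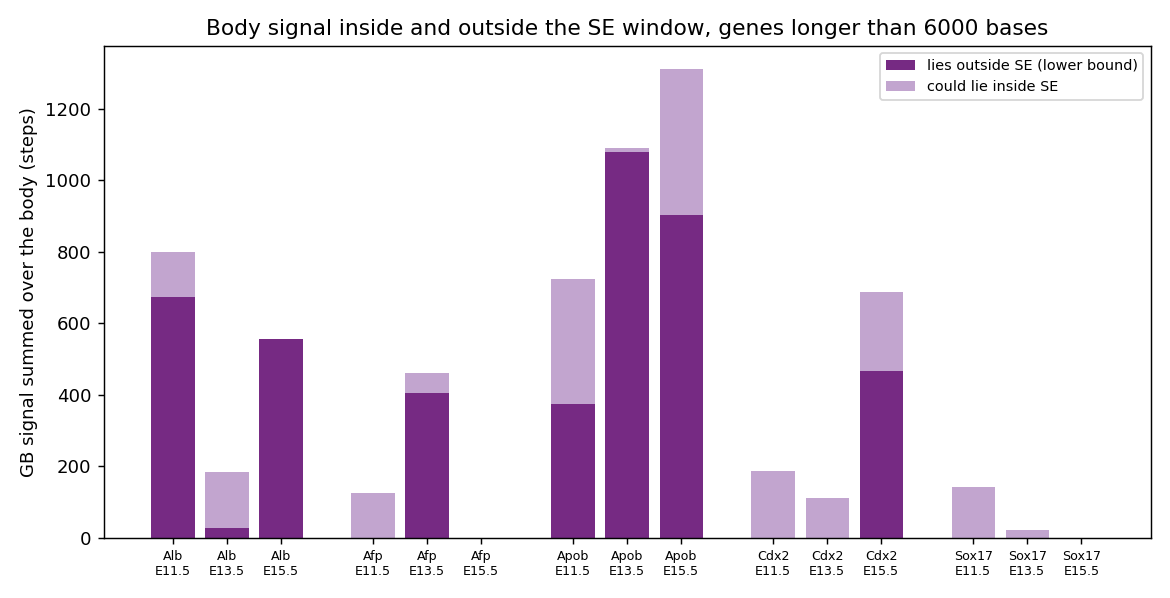
Signal summed over the gene (y axis, in steps) for the 5 genes longer than 6000 bases at each stage (x axis), split into the part that must lie outside the SE window, the GB sum less the SE sum, and the rest. At E15.5 all 556 steps of Alb lay outside it, and at E13.5 at least 1080 of 1090 steps of Apob.

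The smallest share of a gene's signal that must lie outside SE, the GB sum less the SE sum, was set beside the same minimum in rows of like GB length. The actual share can be higher in both, since SE also covers bases outside the gene. For Alb at E15.5 the minimum was 100% where the median row had 13.6%, and 4.62% of 4417 rows were as high. At E11.5 the minimum was 84.0% against 34.6%, with 8.22% of rows as high, and at E13.5 it was 14.1% against 35.8%. For Afp at E13.5 the minimum was 87.8% against 44.3%, and at E11.5 it was 0 against 44.0%, which leaves the place of its 126 steps unknown. Apob at E13.5 had a minimum of 99.1% against 74.9%, with 2.91% of rows as high. At E11.5 and E15.5 its minimum was 51.6 and 69.0% against 73.8 and 59.6%. Cdx2 at E15.5 had a minimum of 67.7% against a median of 0, with 3.64% of rows as high. Rows of like length to Cdx2 include genes under 6000 bases, which SE can hold whole. Their minimum is near 0 by construction, so that median and share cannot show Cdx2 to be unusual.

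Stages were then compared as log2 ratios after adding 0.001 to each value, and a ratio was called where it reached 2-fold and the higher library reached the floor, the median over all rows and libraries (0.00413 for GB, 0.00407 for PR and 0.00460 for SE). From E11.5 to E13.5, 5 of the 7 genes could be called in GB. Afp was higher (log2 ratio 1.30) and Alb lower (-1.64), beside 17.2% of rows higher and 19.4% lower. These and the later shares of rows called are of the rows that reached the floor, 16346 here, and not of all 24318. Sox2 at -0.94 stayed just under the threshold, at 2.05-fold before the addition. From E13.5 to E15.5, 6 could be called: Alb (1.19), Apoa1 (2.85) and Cdx2 (2.26) were higher, beside 27.6% of rows, and Afp (-2.39) and Sox2 (-2.34) lower, beside 22.1%. The ratios of Apoa1 and Afp were taken against a listed 0, so the added 0.001 sets their size and they give no fold. Over the whole span, Apoa1 (2.85) and Cdx2 (1.69) were higher, beside 26.5% of rows, and Sox2 (-3.27) lower, beside 22.8%, of 5 that could be called. Of all rows, 3.55% had a log2 ratio below that of Sox2. Comparisons share libraries: Alb enters the first 2 steps through its low E13.5 value.

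In PR, 4, 3 and 4 of the 7 genes could be called in the same order of comparisons. At E13.5 against E11.5, Sox17 was higher (2.65), beside 28.8% of rows, and Afp (-1.74) and Sox2 (-1.30) lower, beside 32.8%. At E15.5 against E13.5, Cdx2 was higher (1.06), beside 52.2% of rows, and Sox17 lower (-3.92), beside 24.7%, with 0.658% of all rows below it. That ratio and those of Afp in PR and SE and of Sox17 in SE at E15.5 were also taken against a listed 0. With 0.0001 or 0.005 added instead, Sox17 PR came to -7.15 or -1.94. At E15.5 against E11.5, Cdx2 was higher (1.54), beside 50.0% of rows, and Afp (-2.86) and Sox2 (-2.69) lower, beside 26.0%. At E15.5 more rows were thus called higher than lower in PR. The median log2 PR ratio of the 7 genes, -1.12 for the second step and -1.27 for the whole span, stood below the 0.37 and 0.26 of all rows. Both PR calls of Cdx2 were lost when libraries were divided by their median or quantile normalized. Against E11.5 its log2 ratio stayed past 2-fold under both scalings, at 1.17 under the first, and the value missed the floor.

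In SE, 5, 3 and 4 genes could be called. At E13.5 against E11.5, Apoa1 (1.18) and Sox17 (1.30) were higher, beside 19.9% of rows, and Afp (-1.66), Apob (-2.33) and Sox2 (-1.90) lower, beside 24.8%. At E15.5 against E13.5, Apob was higher (2.52), beside 45.7% of rows, and Sox17 lower (-3.03), beside 17.9%. Under either scaling this pair had 0 genes higher and 2 lower: Apob, at 2.25 and 2.35, missed the floor, and Apoa1 was called lower, at -1.23 and -1.58, from -0.77 as deposited. At E15.5 against E11.5, no gene was higher, beside 42.7% of rows, and Afp (-2.50) and Sox2 (-1.05) were lower, beside 19.7%. With only 3 to 5 genes able to be called, 1 gene is a large share of each count, and no count was tested against the rows beside it. Dividing by the median left 57.3 and 57.4% of PR calls higher for the second step and the whole span, from 67.9 and 65.8%, and 56.4 and 56.9% of SE calls, from 71.9 and 68.4%, and quantile normalization evened both out.

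**Figure D4:**
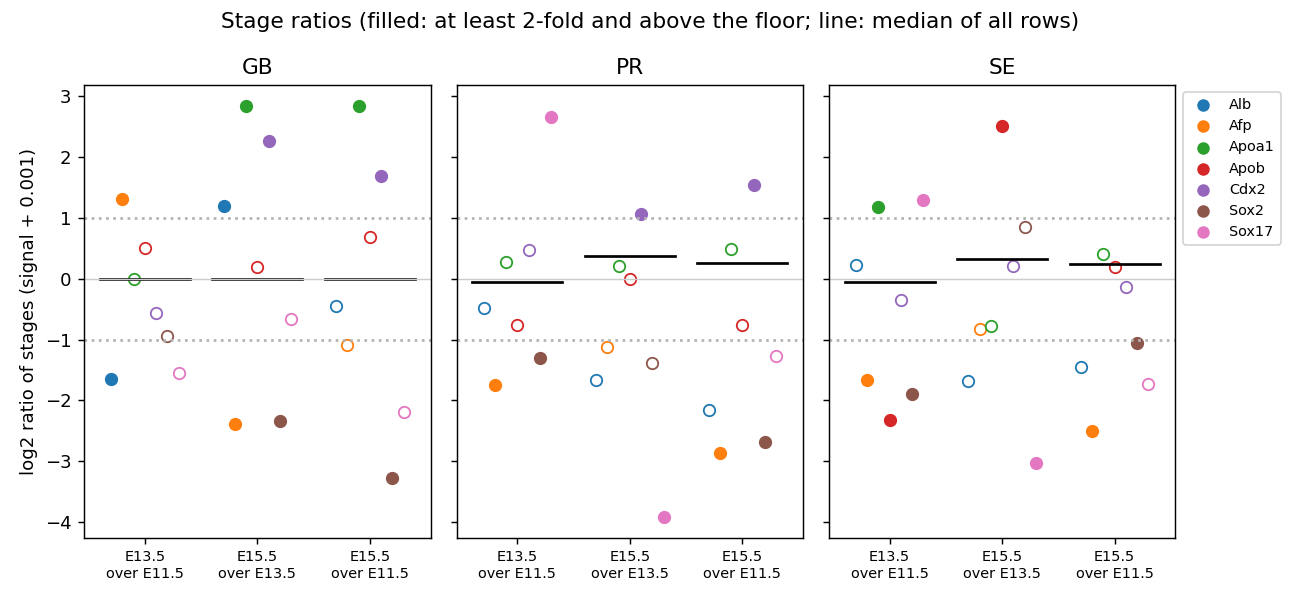
Log2 ratio of the stages (y axis, signal + 0.001) for each gene in each comparison (x axis) and column, filled where called, with dotted lines at 2-fold and a black line at the median of all rows. Called genes lie on both sides of 0 in every panel, from -3.92 (Sox17 PR) to 2.85 (Apoa1 GB), both taken against a listed 0, so that the added 0.001 sets their size.

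Genes with a like course were common for some of the 7. Among the 24317 other rows, GB lay within 1.5-fold, after adding 0.001, of Apob in all 3 libraries in 1787, of Alb in 324, of Cdx2 in 253 and of Sox2 in 120. The closest row to Alb was ENSMUSG00000069806, with GB at 0.00815, 0.00200 and 0.00555, a largest log2 difference of 0.045. The closest to Cdx2 was ENSMUSG00000042333, with GB at 0.00491, 0.00285 and 0.0170 and a largest difference of 0.052. No symbol is paired with either.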

How the data were processed

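The authors deposited 3 tables of signal, PR, GB and SE per gene, 1 table per stage, per the file headers. The aligner and build listed, per the submitters' processing notes, are Bowtie2 2.4.2 and mm10. Read filters, scaling and gene models are not given in the sources used here, and the labels state a mean depth of 20000000 reads per sample. The depth of each table is unknown, so no counting interval is given.

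Of 25493 rows, 1175 (4.61%) had no identifier and stayed out. The members and lists were chosen with earlier results of these data known. The naming rule was all 7 genes in every column, and the 2 nearest rows in GB. The RefSeq table matched 0 identifiers, so marker lists and lists of further liver, gut, foregut and endoderm genes could not be used. Symbols follow the order given with the members and were checked against gene length.

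Steps were fitted to the PR sums, and values were called whole within 0.05 steps (100% of PR and SE sums). GB lengths up to 60000 were searched, giving 15840. On 1500 simulated windows 94.3% were recovered exactly. Rows at 0 in 2 libraries get no length, except Apoa1, whose RefSeq length was tried directly. Percentiles are mid-ranks. Python 3.11.15, numpy 2.4.6, pandas 2.3.3, scipy 1.17.1 and matplotlib 3.10.9 were used.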

Additional observations from a re-analysis of the deposited data

How the results depend on the processing

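No paired analysis was possible because the stages have no second library to pair. Without replicates, a log2 ratio was counted as moved past 0.5 and a percentile past 10 points. Of 387 recomputed ratios and percentiles of single genes, 241 stayed within this, 146 moved and 0 called ratios changed sign. A pseudocount cannot change a sign and a percentile has none, so only dividing by the median or quantile normalization could have done so. Ratios not called were left out of that count, and some did change sign, such as Apoa1 PR for E15.5 against E13.5. Most moves came from the pseudocounts of 0.0001, 0.005 and 0.1. The GB percentile moved in 10 of 21 values among rows of like GB length, a choice that leaves out rows at 0 in 2 libraries.

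A 4-fold threshold left 0 of 2 GB calls for E13.5 against E11.5, 1 of 3 PR calls and 1 of 5 SE calls for the same pair, 1 of 2 PR calls for E15.5 against E13.5 and 1 of 2 SE calls for E15.5 against E11.5. Dividing by the median left 1 of 2 PR calls for E15.5 against E13.5. A floor 5 times higher raised the share called in GB, among the rows that reach the floor, to 79.5, 84.8 and 82.9% in the order of the text, from 36.6, 49.7 and 49.4%. The cause was not tested.

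Among rows above the floor, dividing by the median moved the median log2 ratio of E15.5 against E13.5 by 0.16 in GB, -0.54 in PR and -0.45 in SE, and against E11.5 by 0.19, -0.46 and -0.36.

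With each gene left out in turn, the median percentile of the genes ran, in stage order, from 39.5 to 48.5, 31.2 to 42.8 and 43.8 to 61.4 in GB. It ran from 38.1 to 55.5, 35.5 to 40.1 and 11.0 to 20.2 in PR, and from 45.4 to 52.0, 22.9 to 28.9 and 21.0 to 37.6 in SE. Unknown depth and 1 library per stage limit every value here.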
